A study of Mus musculus with 26 samples.

Results

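The TIM and TOM genes encode the translocases that carry nuclear-encoded proteins into mitochondria, and they were followed here in left ventricle tissue from mice that lack Ppp2r2a in cardiomyocytes. The members are all rows of the count table whose gene name begins with Timm or Tomm followed by a digit, 27 of 56941 rows. Of these, 25 passed the filter on low counts and were among the 15357 genes tested. The other rows were Timm8a2, with 7 counts in all libraries together, and Timm29-ps1, a processed pseudogene with 0 counts in every library. Of the rows tested, 2 held few counts as well, Tomm20l with 202 and the antisense row Tomm6os with 228 in all. The remaining 23 members each averaged over 1 CPM (counts scaled to library size).

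RNA from the left ventricle of 26 mice was sequenced as 26 libraries. All mice carried floxed alleles of Ppp2r2a on both chromosomes (genotype Ppp2r2a L/L), the gene of B55α, a regulatory subunit of protein phosphatase 2A. Controls (Ctrl) had no Cre (aMHC-Cre 0/0), and knockouts (cKO) had 1 copy of a Cre transgene (aMHC-Cre Tg/0) whose promoter, that of α-myosin heavy chain, is active in cardiomyocytes. Of the males 6 were Ctrl and 7 cKO, and of the females likewise 6 and 7. All were aged 12 to 16 weeks, and every mouse, Ctrl included, had received saline from an osmotic minipump for 2 weeks. The strain label is C57BL/6N and the background is mixed, since the floxed mice were C57BL6/N and the aMHC-Cre mice FVB. No Cre carriers lacking the floxed alleles were analysed here, so the Cre transgene, the FVB sequence that came with it and the loss of Ppp2r2a cannot be told apart. The question the groups pose, per the series title, is whether B55α regulates the cardiac transcriptome differently in the sexes.

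Most mitochondrial proteins are made in the cytosol and must cross the outer membrane through the TOM complex. Receptors (Tomm20, Tomm22, Tomm70a) bind the precursors and Tomm40 forms the channel, with the small subunits Tomm5, Tomm6 and Tomm7 around it. Precursors with a cleavable presequence then pass the inner membrane through the TIM23 complex, where Timm23 and its partner Timm17a or Timm17b form the core, Timm50 receives the precursor, Timm21 links the complex to TOM and Timm44 anchors the ATP-driven motor on the matrix side. Carriers of the inner membrane take another route, in which small chaperones of the intermembrane space (Timm8, Timm9, Timm10 and Timm13) hand them to the TIM22 complex of Timm22, Timm29 and Timm10b. The heart depends on this machinery because cardiomyocytes are dense in mitochondria.

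By the edgeR test no TIM or TOM gene passed for a genotype effect in either sex, beside 0.443% of all genes in males and 0.0326% in females. In males DESeq2 called 4 members (Timm17a, Timm21, Timm23 and Timm44), beside 3.98% of the genes to which it gave an adjusted p. With limma voom 1 was called (Timm17a), beside 1.37% of all genes. In males, 22 of the 25 members tested had a log2 fold change below 0 in cKO against Ctrl, beside 49.7% of all genes. All members were measured in the same mice, so they are not separate observations. The members' median was -0.10, and the lowest value was that of Timm8a1. In females 18 of 25 lay below 0, beside 48.9% of all genes, and the members' median was -0.05. Both medians turned to 0.03 when libraries were scaled by 10 cardiomyocyte markers in place of all genes, a scaling chosen after seeing the data that moved the median of all genes to 0.135 in males and 0.080 in females, so relative to all genes the members' medians were -0.11 and -0.05. The only member past the edgeR test in any of the 6 comparisons was Timm22, the channel of the carrier route, which was lower in cKO females than in cKO males. With 2.7% of all genes called in that comparison, 1 of 25 members is near the share over all genes, and the call was lost when any one of 9 mice was left out.

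The start regions of 4 members are printed because the comparisons turn on them: Timm23, Timm44 and Timm17a had the 3 smallest p-values of the mean genotype effect over both sexes, and Timm22 was the member called between the sexes. Each is the RefSeq window (GRCm38.p6) from 250 bases before the transcription start to 50 after it, on the gene's strand, 5′ to 3′. Capitals mark matches on either strand to the motif letters searched, which were GCGCATGC for NRF1, CCGGAAGT for ETS factors such as GABPA, and GCCATNTT for YY1. These factors are known regulators of mitochondrial genes in the nucleus. The windows are at chr14:32201842-32202141 on the minus strand for Timm23, chr8:4275856-4276155 on the minus strand for Timm44, chr1:135313688-135313987 on the minus strand for Timm17a and chr11:76406675-76406974 on the plus strand for Timm22, the first of 2 windows listed for that gene.
Timm23: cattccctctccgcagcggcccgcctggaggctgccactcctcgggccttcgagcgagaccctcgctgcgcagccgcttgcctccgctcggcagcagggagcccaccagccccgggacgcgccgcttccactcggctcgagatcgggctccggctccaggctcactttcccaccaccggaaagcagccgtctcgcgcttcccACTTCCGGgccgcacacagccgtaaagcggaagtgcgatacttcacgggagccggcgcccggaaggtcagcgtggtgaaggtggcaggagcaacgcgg
Timm44: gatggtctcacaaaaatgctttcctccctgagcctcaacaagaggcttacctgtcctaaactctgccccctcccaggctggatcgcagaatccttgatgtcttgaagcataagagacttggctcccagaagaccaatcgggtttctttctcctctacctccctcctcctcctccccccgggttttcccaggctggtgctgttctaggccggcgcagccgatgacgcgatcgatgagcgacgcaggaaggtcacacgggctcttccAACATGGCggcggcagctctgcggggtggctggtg
Timm17a: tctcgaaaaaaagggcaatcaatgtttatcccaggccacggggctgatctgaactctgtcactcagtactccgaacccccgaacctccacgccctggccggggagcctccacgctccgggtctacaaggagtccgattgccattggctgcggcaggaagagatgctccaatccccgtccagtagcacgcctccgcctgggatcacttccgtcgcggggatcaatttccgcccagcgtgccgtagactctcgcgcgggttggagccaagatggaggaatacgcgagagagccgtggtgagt
Timm22: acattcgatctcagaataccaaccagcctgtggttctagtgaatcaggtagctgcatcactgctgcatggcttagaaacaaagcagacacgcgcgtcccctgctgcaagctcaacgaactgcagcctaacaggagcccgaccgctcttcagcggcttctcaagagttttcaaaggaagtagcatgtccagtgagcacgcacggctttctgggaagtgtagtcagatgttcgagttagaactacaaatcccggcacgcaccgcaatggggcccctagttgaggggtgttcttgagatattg

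The Timm23 window holds an ETS match that begins 48 bases before the start, read on the opposite strand, and the Timm44 window holds a YY1 match 15 bases after it. The Timm17a window and both Timm22 windows hold none of the 3 motifs. RefSeq listed a window for 22 of the 25 members tested, all but Tomm7, Tomm40l and Timm21. An ETS match was present in 5 of the 22 (22.7%), those of Timm10, Timm10b, Timm23, Timm29 and Tomm70a, against 3.89% of all 32851 windows in the table. A YY1 match was present in Timm44 and Timm50 (9.09% against 6.05%) and an NRF1 match in Timm13 (4.55% against 2.71%). At least 1 of the 3 motifs was present in 8 of 22 (36.4%), against 11.8% of all windows. The members' shares count genes that were tested, while the shares beside them count every window. Those windows include several for some genes and also genes that were not tested here, so the shares are not of the same kind. Of the 5 members with an ETS match, Timm10b and Timm29 had male log2 fold changes of 0.02 and -0.01, Tomm70a had -0.06, and Timm23 and Timm10 had -0.17 and -0.16. A match is a run of letters and no measurement of binding.

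Members differed widely in level. To compare genes, counts were divided by the length of the longest annotated transcript and scaled to the same sum in every library, as TPM values are. On this scale the mean over 26 mice was 285 ± 18.6 (SD, n = 26) for Timm8b, 256 ± 22.2 for Timm23, 235 ± 22.1 for Tomm5 and 153 ± 17.6 for Timm10. These levels depend on the length used. Timm8b, Timm23 and Tomm5 filled the first 3 ranks under both measures of length, but with the mean transcript length Timm23 came first with 278 and Timm8b second with 190.0. The receptors stood at 83.2 ± 8.52 (Tomm22), 34.3 ± 2.51 (Tomm20) and 31.6 ± 2.21 (Tomm70a), and the channel Tomm40 at 61.6 ± 4.20. The partners of Timm23 were unequal, with Timm17a at 35.4 ± 1.97 and Timm17b at 20.8 ± 1.40 (76.6 and 27.7 with the mean transcript length). Timm22, the channel of the carrier route, was at 17.4 ± 1.96 beside the 256 of Timm23, and its partners Timm29 and Timm10b were at 46.7 ± 4.55 and 9.70 ± 0.938. With the mean transcript length these 3 genes of the TIM22 complex lay close together, at 29.8 for Timm22, 31.1 for Timm29 and 25.5 for Timm10b. Tomm6 had the lowest listed level of the core TOM subunits at 7.55 ± 0.982. Of its runs of 50 bases, 77.2% also occur in other annotated genes on the same strand. How reads from such runs were counted is not stated, so this level and its rank are uncertain. Tomm20l, a relative of Tomm20, averaged 1.23 ± 0.806.

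**Figure D1:**
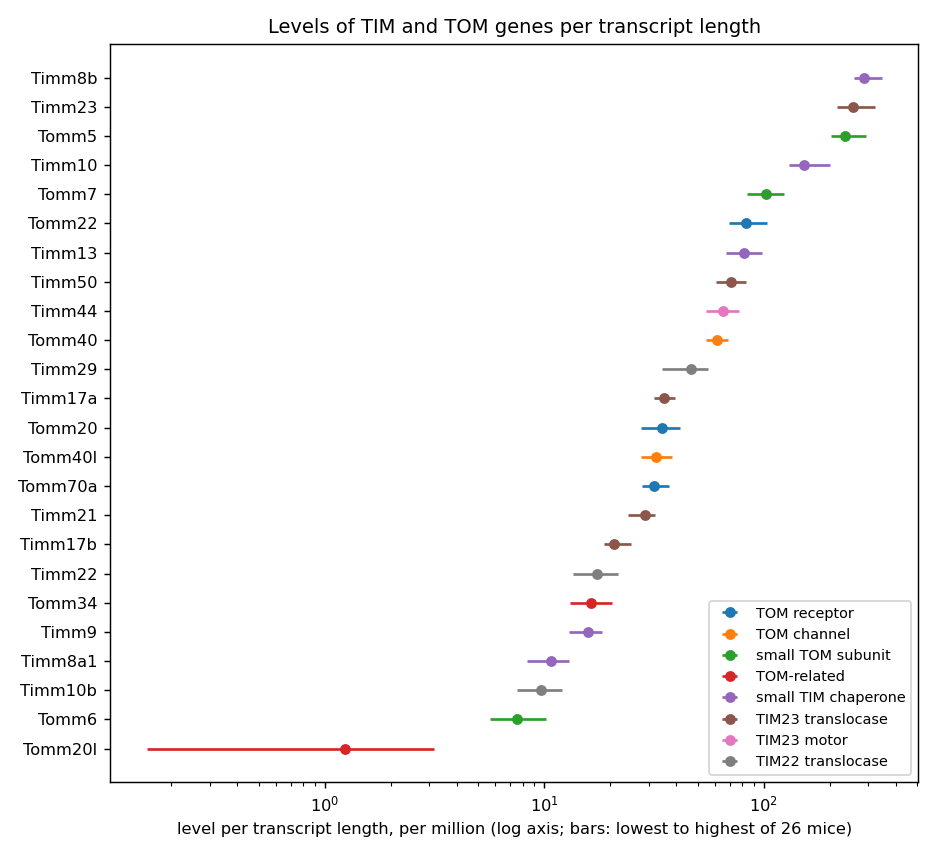
Level of 24 TIM and TOM genes per length of the longest transcript (TPM scale) on a log axis, with points for the mean and bars from the lowest to the highest of 26 mice, coloured by role. Timm8b (285), Timm23 (256) and Tomm5 (235) are highest and Tomm20l (1.23) lowest, and for most genes the whole range over mice is small beside the differences between genes. The levels of Timm23 and Tomm6 are uncertain, since most of their sequence is shared with other annotated genes.

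Within a group the members varied little from mouse to mouse. The coefficient of variation over mice was taken for the 23 members that averaged over 1 CPM. Its median was 6.71% in Ctrl males, 6.31% in cKO males, 7.31% in Ctrl females and 7.02% in cKO females. Timm17a had the smallest value in both Ctrl groups (3.03% in males and 2.46% in females). Tomm6 had the largest in cKO males (11.4%) and cKO females (18%), and Timm29 in Ctrl males (11.3%) and Ctrl females (10.9%). Tomm6 rested on 48 to 138 counts per library, so its spread between mice is uncertain.

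The deleted gene followed its labels. Ppp2r2a stood at 37.4 ± 10.2 CPM (SD, n = 6) in Ctrl males, from 24.1 to 47.7, and at 14.1 ± 1.81 (n = 7) in cKO males, from 11.8 to 16.2. In females it was 40.4 ± 3.60 in Ctrl and 13.4 ± 2.07 in cKO. Its log2 fold change was -1.40 in males (edgeR quasi-likelihood test with Benjamini-Hochberg adjustment, adjusted p = 1.86e-06) and -1.58 in females (adjusted p = 1.9e-07). Ctrl males 1, 2, 4 and 5 had 41.9 to 47.7 CPM. The 2 lowest Ctrl libraries, those of males 3 and 6, had 24.9 and 24.1 CPM, between these and the highest cKO male at 16.2. Without both, which was decided after seeing the data, 23 of 25 members lay below 0 in males with a median of -0.11, 0 passed in males, and Timm44 and Timm23 passed in the mean over the sexes (edgeR adjusted p = 0.0437 and 0.0486), beside 1.59% of all genes. Total counts per library ran from 14403102 to 30867399, and genes of the mitochondrial genome took 13.8% to 19.2% of them. The lowest of these shares was that of cKO female 1, without which the members' female median was -0.03 and 0 members passed in females. The 10 cardiomyocyte markers were detected in every library and summed to 69286 to 93061 CPM.

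In males the knockout was compared with Ctrl by the edgeR test with adjustment over all 15357 genes. Of these, 68 (0.443%) passed an adjusted p of 0.05, 40 of them lower in cKO (0.26%) and 28 higher (0.182%), and 0 of the 25 TIM and TOM genes tested did. At an unadjusted p under 0.05, 11 of the 25 members were lower in cKO and 0 higher, beside 7.09% of all genes lower and 6.11% higher. DESeq2's Wald test called 4 members in males, beside 386 of the 9700 genes to which it gave an adjusted p (3.98%), and limma voom 1, beside 211 of 15357 (1.37%). The 22 of 25 members below 0 stand beside 49.7% of all genes, and the members' median log2 fold change of -0.10 beside 0.001 over all genes. For 10 of the 25 members cKO male 3 had the lowest level of all males. As each of the 26 mice was left out, 21 to 23 members lay below 0. With the cardiomyocyte markers as the scale, 7 of 25 members lay below 0. That scale moved the median of all genes to 0.135, so this count cannot be set against the 22. Relative to all genes the members' median was then -0.11.

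**Figure D2:**
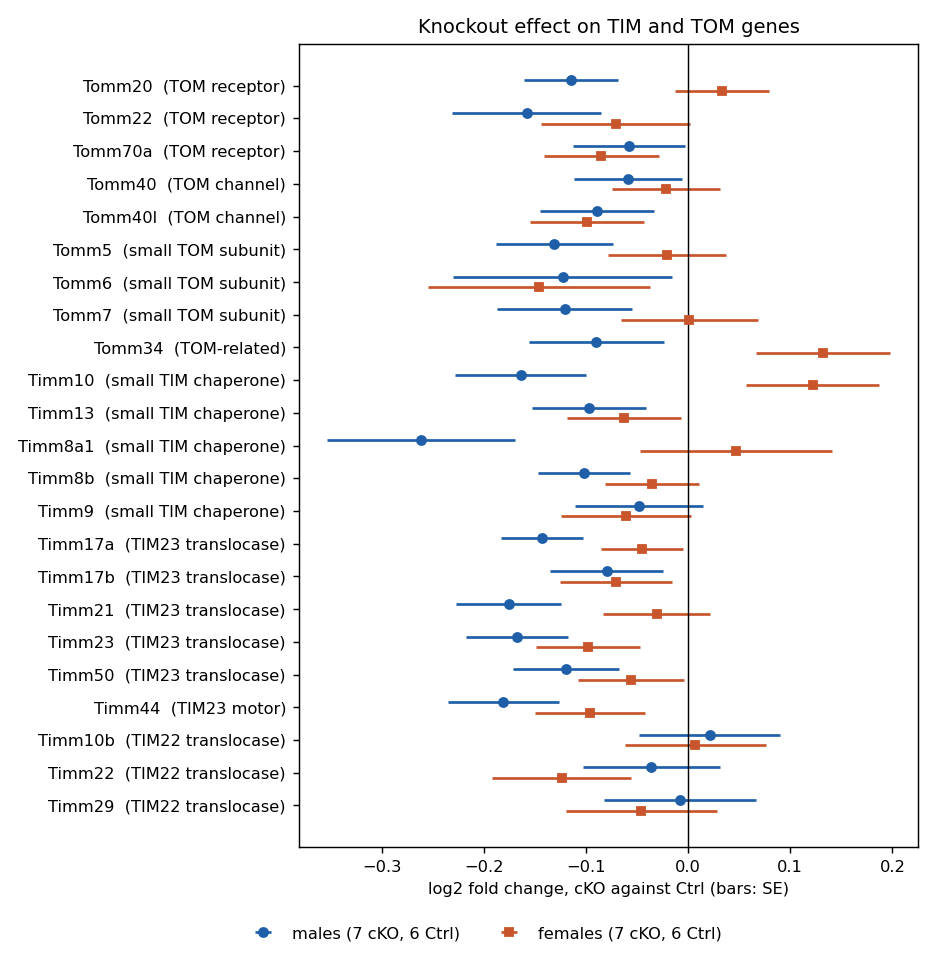
Log2 fold change of cKO against Ctrl for 23 TIM and TOM genes, with points for males (7 cKO, 6 Ctrl) and squares for females (7 cKO, 6 Ctrl) and bars for the standard error. None passed the edgeR test. Most male points lie left of 0, with Timm8a1 (-0.26), Timm44 and Timm21 (-0.18 each) among the lowest, and the TIM22 genes lie near 0. Under scaling by cardiomyocyte markers the members' median turned to 0.03 in both sexes, beside 0.135 in males and 0.080 in females for all genes.

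For the presequence translocase, all 5 members of the TIM23 core and Timm44 had log2 fold changes below 0 in males, from -0.18 to -0.08. Over all genes 49.7% lay below 0. Of these 6 members, 5 had an unadjusted p under 0.05 by edgeR, beside 7.09% of all genes lower. They are among the 11 members counted above, and none passed after adjustment. Timm17a (ENSMUSG00000062580, chromosome 1) had the smallest p of all members. Its lowest, median and highest levels were 135, 138 and 147 CPM in Ctrl males and 116, 126 and 135 CPM in cKO males. All 7 cKO males were below the Ctrl mean and 6 of 7 below the lowest Ctrl male, so the groups overlapped by a single cKO mouse. The knockout effect was -0.14 on the log2 scale (SE 0.04, n = 7 and 6, edgeR adjusted p = 0.0876), and over 17 other settings it ranged from -0.22 to -0.01, with adjusted p from 0.011 to 0.927.

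Timm23 (ENSMUSG00000013701, chromosome 14), the channel itself, ran from 154 through a median of 168 to 179 CPM in Ctrl males and from 135 through 146 to 171 CPM in cKO males. One cKO male, replicate 7, lay above the Ctrl median, and 5 of the 7 cKO males lay below every Ctrl male. The log2 fold change was -0.17 (SE 0.05, adjusted p = 0.109 by edgeR). As each of the 26 mice was left out, the edgeR adjusted p ran from 0.0395 to 0.225. The lowest was without cKO male 7, where the log2 fold change was -0.21. Over 17 other settings the log2 fold change ranged from -0.19 to -0.03, with adjusted p from 0.0328 to 0.773. Timm23 shares 90.9% of its 50-base stretches with other annotated genes on the same strand, Gm10273 among them, for which 0 counts were listed in every library. How the authors' counting treated such reads is not stated, so the level of Timm23 is uncertain.

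Timm21 was singled out after its values were seen, as the only member whose male groups did not overlap, with 37.2 to 40.4 CPM in Ctrl and 32.8 to 36.3 CPM in cKO. Over all genes, 0.873% had male groups apart in this direction and 0.41% in the other. Its log2 fold change was -0.18 (SE 0.05, adjusted p = 0.0992 by edgeR). Timm44, which tethers the motor, had the same fold change of -0.18 (SE 0.05, adjusted p = 0.107), with 96.4 to 118 CPM in Ctrl males and 82.3 to 108 CPM in cKO males. Of the other core genes, Timm50 had -0.12 (adjusted p = 0.305) and the X-linked Timm17b -0.08 (adjusted p = 0.572).

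**Figure D3:**
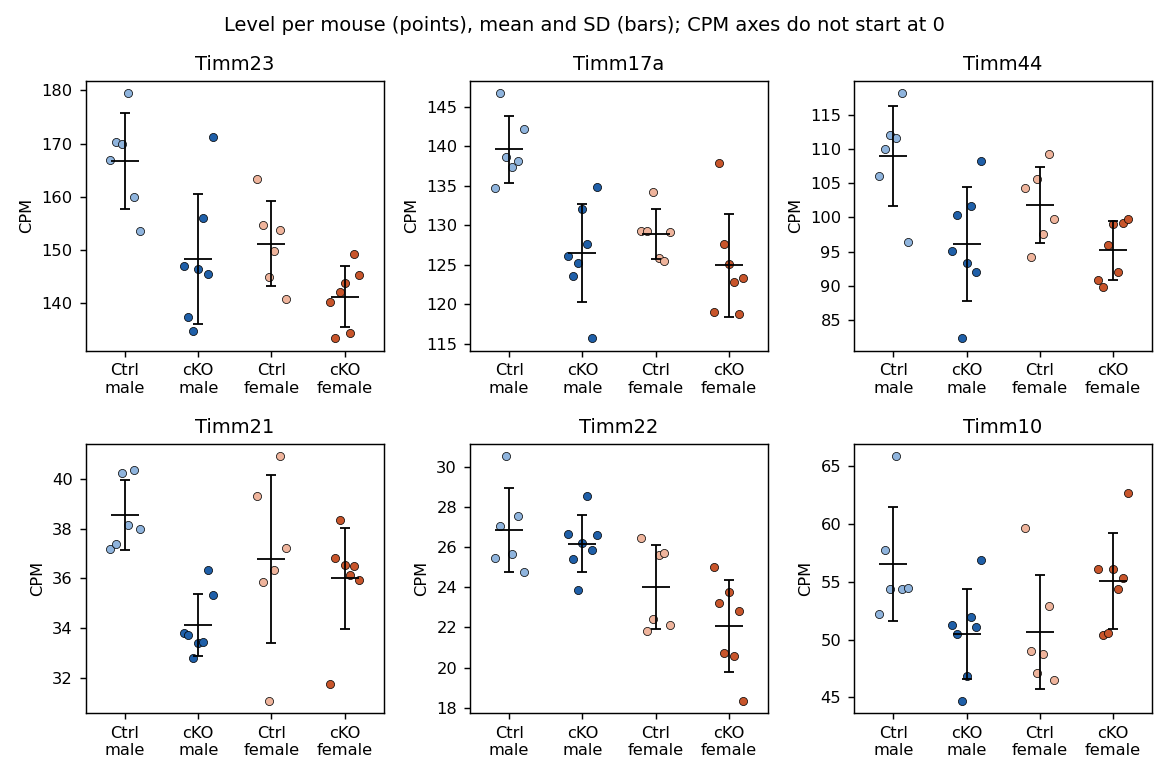
Level in CPM of 6 members in each mouse (points), with the group mean and SD (bars), for Ctrl and cKO of each sex; the axes do not start at 0. The cKO males lie below all Ctrl males for Timm21 only, Timm10 is lower in cKO males and higher in cKO females on average, and Timm22 is lowest in cKO females.

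The TIM22 genes lay nearer to 0, though the difference between the routes was not tested. Timm22, Timm29 and Timm10b had male log2 fold changes of -0.04, -0.01 and 0.02, with adjusted p of 0.874, 0.982 and 0.933. The small chaperones that feed this route spread more. Of these, 5 of 5 tested lay below 0, beside 49.7% of all genes. By edgeR 3 were lower at an unadjusted p under 0.05, beside 7.09% of all genes. Timm8a1 had the lowest log2 fold change of all members, -0.26 (SE 0.09, adjusted p = 0.183), with 7.24 to 9.13 CPM in Ctrl males and 6.07 to 7.83 CPM in cKO males. All 7 cKO males were below its Ctrl mean, and the groups overlapped. It shares 41.0% of its stretches with Gm9797, which held 17 to 53 counts per library beside 112 to 235 for Timm8a1, so its value is uncertain. Timm10 had -0.16, Timm8b -0.10, Timm13 -0.10 and Timm9 -0.05, with adjusted p from 0.249 to 0.808.

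Among the TOM genes, the receptors Tomm20 and Tomm22 had male log2 fold changes of -0.12 and -0.16 with edgeR adjusted p of 0.254 and 0.344, and the receptor Tomm70a had -0.06 (adjusted p = 0.718). The channel gene Tomm40 had -0.06 and its relative Tomm40l -0.09, with adjusted p of 0.694 and 0.518. Tomm40l has 64.1% of its stretches in common with Nr1i3 on the opposite strand, which held 0 to 7 counts per library. Of the small subunits, Tomm5 had -0.13, Tomm7 -0.12 and Tomm6 -0.12, with adjusted p of 0.311, 0.445 and 0.684. Tomm6 rests on 48 to 138 counts per library and shares 77.2% of its stretches with Gm21981, which makes it uncertain. Tomm34, a cytosolic co-chaperone named for this complex, had -0.09 (adjusted p = 0.599). Tomm20l had 0.78 with a standard error of 0.50, from 1 to 20 counts per male library.

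In females 5 genes of 15357 (0.0326%) passed, 1 lower in cKO (0.00651%) and 4 higher (0.026%), and 0 of the 25 members. For 0 members did the female groups lie apart, which occurred for 0.0521% of all genes in the lower direction and 0.117% in the higher. At an unadjusted p under 0.05 no member passed in either direction, beside 2.42% of all genes lower and 2.73% higher. DESeq2 and limma voom called 0 members as well, beside 0.0586% and 0.026% of all genes. The 18 members below 0 stand beside 48.9% of all genes, and the median of -0.05 beside 0.003 over all genes. Among the members that averaged over 1 CPM, the 3 lowest female log2 fold changes were those of Tomm6 (-0.15, an uncertain value), Timm22 (-0.12) and Tomm40l (-0.10). The highest were those of Tomm34 (0.13) and Timm10 (0.12). Each of these was within 2 standard errors of 0.

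The smallest female p belonged to Tomm6os, an RNA on the strand opposite Tomm6. Its lowest, median and highest levels were 0.104, 0.321 and 0.552 CPM in Ctrl females and 0.378, 0.504 and 0.866 CPM in cKO females. These are 2 to 14 counts in Ctrl libraries and 6 to 14 in cKO libraries. All 7 cKO females were above the Ctrl mean, and the groups overlapped. The log2 fold change was 0.72 (SE 0.36, unadjusted p = 0.0555, adjusted p = 0.948), and in males it was 0.44 (SE 0.35). Of its stretches, 38.5% lie on the opposite strand of other genes, and the use of strand in counting is not stated, so its counts are uncertain.

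Whether the genotype effect differed between the sexes was tested as a female minus male difference of log2 fold changes. Over all genes 0 passed (0%), with 1.91% lower and 2.04% higher at an unadjusted p under 0.05. Of the 25 members 0 passed, and 4 had an unadjusted p under 0.05, all with the female value above the male one: Timm10 with 0.29, Tomm34 with 0.22, Timm8a1 with 0.31 and Tomm20 with 0.15. All 4 had an adjusted p of 0.999. DESeq2 and limma voom called 0 members too. The median difference was 0.07, beside 0.005 over all genes, and 8 of 25 lay below 0, beside 48.4% of all genes.

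Timm10 (ENSMUSG00000027076, chromosome 2), the carrier chaperone that pairs with Timm9, had the smallest p of these. In males its lowest, median and highest levels were 52.3, 54.4 and 65.9 CPM in Ctrl and 44.7, 51.1 and 56.9 CPM in cKO. In females they were 46.5, 48.9 and 59.7 CPM in Ctrl and 50.4, 55.3 and 62.7 CPM in cKO. Ctrl males and cKO females were the higher groups, and the genotypes overlapped in both sexes. The log2 fold change was -0.16 (SE 0.06) in males and 0.12 (SE 0.07) in females, neither past the adjusted threshold by edgeR (0.249 and 0.948).

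Averaged over the sexes, 205 genes (1.33%) passed, 133 lower in cKO (0.866%) and 72 higher (0.469%), and 0 of the 25 members. At an unadjusted p under 0.05, 8 members were lower and 1 higher (Tomm6os), beside 7.7% and 6.43% of all genes. The 21 members below 0 stand beside 48.4% of all genes, and the median of -0.08 beside 0.004. Timm23 had the smallest p, with a mean effect of -0.13 on the log2 scale (SE 0.04, adjusted p = 0.0544 by edgeR). In females its lowest, median and highest levels were 141, 152 and 163 CPM in Ctrl and 133, 142 and 149 CPM in cKO, so all 7 cKO females were below the Ctrl mean with the groups overlapping. Timm44 followed with -0.14 (adjusted p = 0.0621), Timm17a with -0.09 (adjusted p = 0.0879) and Timm21 with -0.10 (adjusted p = 0.154). Other settings moved the first 3 of these across the threshold, and Timm21 passed under none. Timm23, Timm44 and Timm17a passed by DESeq2 (adjusted p from 0.0111 to 0.0161), beside 4.57% of the genes to which it gave an adjusted p, and Timm23 and Timm17a by limma voom (0.0476 and 0.048), beside 2.12%.

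Next, females were set against males of the same genotype. In Ctrl, 98 genes (0.638%) passed, 54 lower in females (0.352%) and 44 higher (0.287%), and 0 of 25 members did. At an unadjusted p under 0.05, 5 members were lower in females and 1 higher, beside 5.87% and 6.2% of all genes. Timm17a had the smallest p: its lowest, median and highest levels in Ctrl females were 125, 129 and 134 CPM, below the 135 to 147 CPM of Ctrl males without overlap. Over all genes 0.58% lay apart in this direction and 0.443% in the other. The log2 fold change of females against males was -0.12 (SE 0.04, adjusted p = 0.222 by edgeR). DESeq2 and limma voom called 0 members in this comparison, beside 1.65% and 0.82% of all genes.

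**Figure D4:**
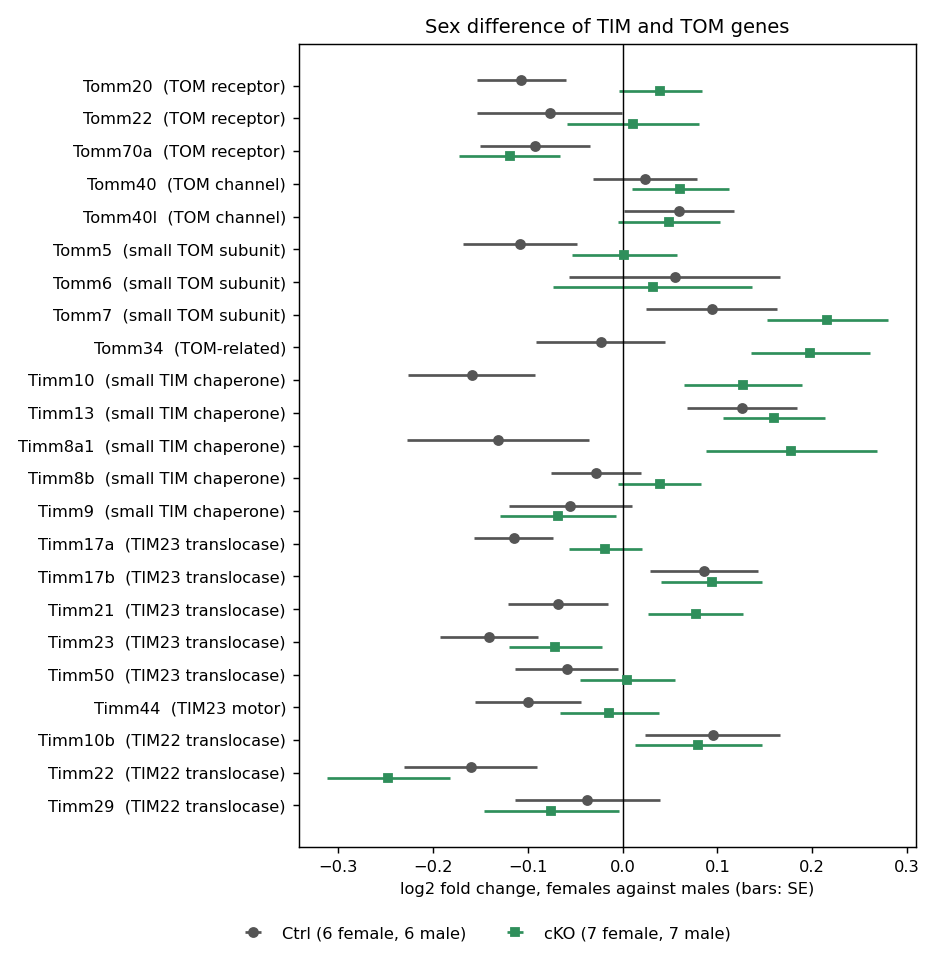
Log2 fold change of females against males for 23 TIM and TOM genes, with points for Ctrl (6 and 6 mice) and squares for cKO (7 and 7 mice) and bars for the standard error. Timm22 in cKO (-0.25) was the member that passed, and Tomm7 (0.22) and Tomm34 (0.20) lay highest in cKO.

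In cKO, 414 genes (2.7%) differed between the sexes, 195 lower in females (1.27%) and 219 higher (1.43%), and 1 of 25 members passed. At an unadjusted p under 0.05, 2 members were lower in females and 3 higher, beside 8.15% and 9.11% of all genes. The cKO groups lay apart for 0 members, beside 0.527% of all genes lower and 0.567% higher. The member that passed was Timm22 (ENSMUSG00000020843, chromosome 11). Its lowest, median and highest levels were 23.9, 26.2 and 28.5 CPM in cKO males and 18.3, 22.8 and 25 CPM in cKO females. The groups overlapped, and cKO female 7 was lowest. Females against males gave -0.25 on the log2 scale (SE 0.07, n = 7 and 7, edgeR adjusted p = 0.0365). In Ctrl the same comparison gave -0.16 (SE 0.07, adjusted p = 0.344), with 24.8, 26.4 and 30.5 CPM in males and 21.8, 24.0 and 26.4 CPM in females. The sex difference of Timm22 was not shown to depend on genotype, since the test of that difference gave -0.09 (SE 0.10, unadjusted p = 0.364).

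The call of Timm22 was close to its threshold. It was lost without the filter on low counts, with a fit of the cKO groups alone and with the replicate block joined to the length correction, and it was lost when any one of cKO males 1, 4, 5, 6 and 7 or cKO females 3, 4, 5 and 7 was left out, with adjusted p from 0.0509 to 0.0783. Its log2 fold change ranged from -0.28 to -0.21 as each of the 26 mice was left out. DESeq2 called Timm22 and Tomm7 in this comparison, beside 4.7% of its genes, and limma voom Timm22 and Tomm34, beside 4.48%. The next members, higher in cKO females than in cKO males, were Tomm7 with 0.22 (adjusted p = 0.063), Tomm34 with 0.20 (adjusted p = 0.0871) and Timm13 with 0.16 (adjusted p = 0.106). The X-linked members Timm17b and Timm8a1 had 0.09 and 0.18 (adjusted p = 0.378 and 0.312).

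The members' summed level was set beside the summed level of marker genes, since bulk tissue mixes cell types and fewer cells of a type cannot be told apart from less RNA per cell. The 27 rows summed to 1465 ± 44 CPM in Ctrl males, from 1396 to 1506, and to 1353 ± 53.9 CPM in cKO males, from 1277 to 1453. The mean differed by -7.66% in males. In females the sums were 1407 ± 45.2 CPM in Ctrl and 1365 ± 31.8 CPM in cKO, a difference of -3.00%. The 10 cardiomyocyte markers summed to 79490 to 86392 CPM in Ctrl males and 69286 to 82405 CPM in cKO males, a difference of the means of -8.77%, and in females the means differed by -5.17%. Among these markers, 1 of 10 passed lower in males, beside 0.26% of all genes. It was Tnni3, cardiac troponin I (log2 fold change -0.24, edgeR adjusted p = 0.0316, and 0.0545 without Ctrl males 3 and 6). At an unadjusted p under 0.05, 5 of 10 were lower in cKO males and 0 higher, beside 7.09% and 6.11% of all genes. In the mean over the sexes 2 passed lower, beside 0.866%. Between the sexes in cKO 2 passed higher in females, beside 1.43%. The markers used as a scale thus differed between groups themselves.

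**Figure D5:**
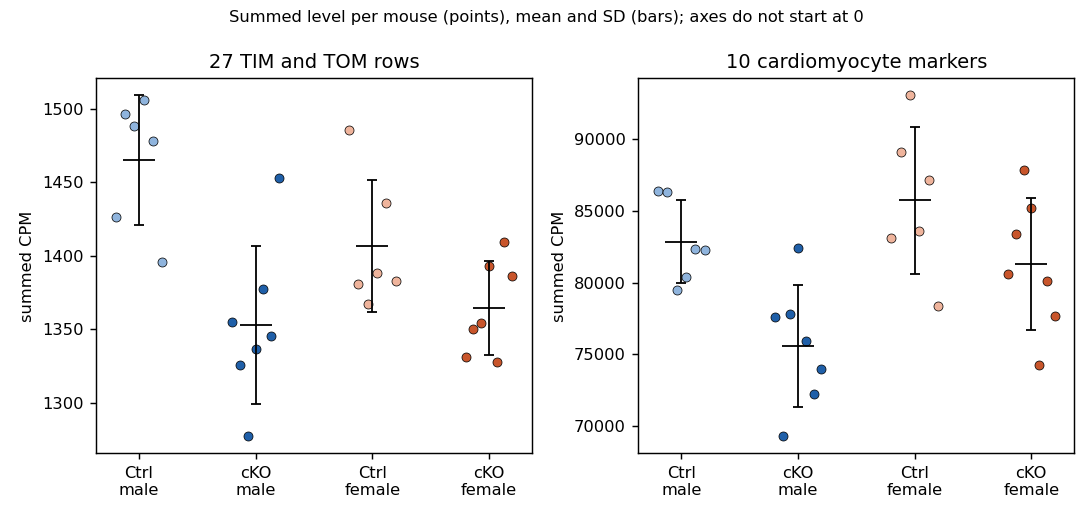
Summed CPM of the 27 TIM and TOM rows (left) and of 10 cardiomyocyte markers (right) in each mouse (points), with the group mean and SD (bars); the axes do not start at 0. Both sums are lower on average in cKO than in Ctrl in males (-7.66% and -8.77%) and in females (-3.00% and -5.17%) on this scale, with overlapping ranges.

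Summed levels of the other cell types' markers differed in both directions. The sum of 8 fibroblast markers was 12.5% higher in cKO males (942 to 1407 CPM in Ctrl and 1111 to 1478 in cKO) and 4.07% higher in cKO females. By edgeR 0 of 8 passed in either sex. In males 2 of 8 were higher at an unadjusted p under 0.05, beside 6.11% of all genes. DESeq2 and limma voom each called 1 of the 8 in males, beside 3.98% and 1.37% of their genes, and 0 in females. The sum of 8 endothelial markers differed by -6.41% in males and was 5.41% higher in cKO females. The atrial list, in which Nppa is also a stress gene of the ventricle, summed to 89.6 to 427 CPM in Ctrl males and 130 to 741 CPM in cKO males, and to 182 to 513 and 330 to 859 CPM in females. Of that list Myl7, Sln and Bmp10 were too low to test. Of the 3 tested, Dkk3 passed in the mean over the sexes (log2 fold change 0.57, edgeR adjusted p = 0.0417), beside 0.469% of all genes higher. Its call was lost without Ctrl males 3 and 6 (0.0798) or without cKO female 1 (0.0681). The part of these cell types in the values of the TIM and TOM genes was not tested.

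Transcript length also ran with the genotype effect. Over 15092 genes the male log2 fold change had a Spearman rho of 0.254 with the length of the longest transcript, and the female one 0.102; these are across genes, which are not independent. Within a library, the correlation of log2 level, relative to the mean of all libraries, with length ran from -0.17 to 0.09 in Ctrl males and from 0.07 to 0.18 in cKO males. In females it ran from -0.16 to 0.09 in Ctrl and from -0.16 to 0.08 in cKO. The members tested had a median length of 2381 bases, beside 3192 over all genes. After correction for length and GC content in each library, the members' medians were -0.09 in males and -0.06 in females, and Timm17a, the longest member with 7280 bases, passed in males (-0.21, adjusted p = 0.0462), beside 0.0977% of all genes.

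Other genes of import and its surroundings, 98 in 12 lists, were read beside the members. Of 97 tested, 3 passed lower and 0 higher in males by edgeR, beside 0.26% and 0.182% of all genes. At an unadjusted p under 0.05, 30 of the 97 were lower and 1 higher, beside 7.09% and 6.11% of all genes. The median log2 fold change of the 97 was -0.06, which turned to 0.07 with the cardiomyocyte markers as the scale, beside 0.135 for all genes. Those that passed were Dnajc15, an inner membrane co-chaperone of the motor (-0.20, adjusted p = 0.0316), Cycs, cytochrome c (-0.25, adjusted p = 0.0316), and Mtch2, an outer membrane protein (-0.17, adjusted p = 0.0272). Without Ctrl males 3 and 6 their adjusted p was 0.0545, 0.0545 and 0.0579, and 0 of 97 passed. DESeq2 called 15 of the 97 lower in males, beside 2.43% of its genes, and limma voom 8, beside 0.833%. The 8 genes of the motor and presequence chaperones were all below 0 in males, beside 49.7% of all genes, with a median of -0.17. Under the marker scaling 5 of 8 were below 0, with a median of -0.04 beside the same 0.135. In females 0 of 97 passed by edgeR, DESeq2 or limma voom. By edgeR 7 were lower and 1 higher at an unadjusted p under 0.05, beside 2.42% and 2.73% of all genes. The female median of the 97 was -0.04.

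In the mean over the sexes, beside 0.866% of all genes lower, 5 of these 97 passed by edgeR, all lower. They were Hspa9, the mitochondrial Hsp70 that pulls precursors in and binds Timm44 (-0.16, adjusted p = 0.0162), Hspd1, the matrix chaperonin (-0.18, adjusted p = 0.0283), and Dnajc15, Cycs and Mtch2. Hspa9 averaged 824 CPM in Ctrl males and 718 CPM in cKO males, and 783 and 716 CPM in females. Its male value alone was -0.20 with an adjusted p of 0.0557, and under the marker scaling its mean effect was -0.06 with an adjusted p of 0.304. All 5 kept a value below 0 under the marker scaling, from -0.07 to -0.02 beside a median of 0.110 for all genes, and none passed there.

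Genes of the stress response that defects of import are known to induce showed 0 of 13 past the edgeR test in males and 0 by DESeq2 or limma voom. At an unadjusted p under 0.05 by edgeR 0 were lower and 0 higher, beside 7.09% and 6.11% of all genes. The male median of the 13 was 0.16. In the mean over the sexes 0 of 13 passed by the 3 tools, and 10 of 13 lay above 0 with a median of 0.10. By edgeR 6.43% of all genes were higher at an unadjusted p under 0.05, and 2 of the 13 were. These were Mthfd2, a mitochondrial folate enzyme (0.46, edgeR adjusted p = 0.233), and Gdf15, a secreted stress cytokine (0.83, adjusted p = 0.292), named after their values were seen. The regulators of mitochondrial biogenesis, such as Ppargc1a, showed 0 of 14 by each of the 3 tools. By edgeR in males 1 was lower and 1 higher at an unadjusted p under 0.05, beside 7.09% and 6.11% of all genes. The male median of the 14 was -0.01. Between the sexes in cKO, 1 of the 97 genes passed lower in females by edgeR and 3 higher, beside 1.27% and 1.43% of all genes. The lower one was Pmpcb, a subunit of the presequence peptidase (-0.15, adjusted p = 0.0394). The 3 higher were Micos10 of the cristae-organising complex (0.21, adjusted p = 0.0255), Clpp, a matrix protease (0.14, adjusted p = 0.0372), and Fis1, an outer membrane protein of fission (0.22, adjusted p = 0.0117). Clpp and Pmpcb were no longer called after the length and GC correction (0.384 and 0.137), and with the cardiomyocyte markers as the scale the 3 higher genes were not called, with adjusted p from 0.198 to 0.764.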

How the data were processed

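Poly-A RNA of 26 left ventricle samples was sequenced from stranded libraries, with RNA integrity numbers from 7.7 upward, per the labels' protocols. Raw counts per gene, whole numbers with Ensembl IDs and gene names, were deposited by the authors. FastQC 0.74, cutadapt 4.6, STAR 2.7.11a, HTSeq and the build GRCm39 are named in the submitters' processing notes, and their roles, the annotation and whether counting used strand are not given in the sources used here. Genes that share sequence or overlap others are therefore given as uncertain. The labels number the samples and do not state that each is a separate mouse, which is assumed here. If some shared a mouse, the p-values would measure the spread between samples only. All 72 pairs of libraries within groups differed by more than sampling noise, with chi-square per degree of freedom from 7.34 to 36.5, so all were kept.

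In R 4.3.3, edgeR 4.0.16 kept genes by filterByExpr with a minimum count of 10, scaled libraries by TMM and fitted 1 mean for each of the 4 groups to all 26 samples with robust quasi-likelihood tests. Benjamini-Hochberg adjustment ran over 15357 genes, with calls at an adjusted p under 0.05. CPM are computed from the TMM-scaled totals, which range from 14403102 to 30867399 counts before scaling, and a count of 3 corresponds to 0.0972 to 0.208 CPM. The standard error is the size of the fold change divided by the root of its F. Transcript lengths, GC content and chromosomes came from GENCODE M21 by gene ID (98.3% of genes tested), and start windows from RefSeq; both are on GRCm38, so none of the authors' coordinates are used. Shared stretches are runs of 50 bases of a member's longest transcript found in transcripts of other genes. The method was tested on simulated data.

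The members were fixed by their names, and the members and lists were chosen with earlier results of these data known. Values by group were given for the member called and for the member of smallest p in each of the 6 contrasts. Those of Timm21, Timm44 and Timm8a1 were added after their values were seen. Among other lists, genes called were named. A planned exact permutation test of members called for genotype had no gene to run on. Alternatives were other scalings, the DESeq2 1.42.0 Wald test, limma 3.58.1 voom, other filters, a replicate block, a length and GC correction with splines of 4 degrees of freedom, other thresholds and each sample left out.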

Additional observations from a re-analysis of the deposited data

Results flagged for a closer look

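In 7 of 100 sets of 1 member and 1 group, a single mouse stood far from the others by Dixon's criterion, where chance alone gives about 5. Tomm20, a TOM receptor, had 1 such mouse in both male groups, with 97.0 CPM in Ctrl male 4 and 91.8 CPM in cKO male 7. The same cKO male 7 was highest in its group for Tomm5, a small TOM subunit, with 95.7 CPM. Ctrl male 2 had 92.6 CPM of Timm29, a TIM22 subunit. In cKO females, female 1 was lowest for Timm21 with 31.8 CPM, female 2 lowest for Tomm34 with 16.8 CPM, and female 4 highest for the antisense row Tomm6os with 0.866 CPM.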

How the results depend on the processing

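No result changed sign while called. Members called (of 25) changed as follows, and the cause was not tested. In males, where 0 were called, the counts were 4 with DESeq2, 1 with voom, 1 after the length and GC correction and 2 at an adjusted p under 0.1; leaving out 1 mouse gave 0 to 1. In females and for the difference between the sexes 0 were called under every setting tried, and likewise between the sexes in Ctrl. For the mean effect, where 0 were called, they were 1 with upper quartile scaling, 3 with DESeq2, 2 with voom, 1 with a mean of at least 5 CPM, 2 after the length and GC correction, 3 at an adjusted p under 0.1 and 2 without Ctrl males 3 and 6; leaving out 1 mouse gave 0 to 2. Between the sexes in cKO, where 1 was called, they were 2 with DESeq2, 2 with voom, 0 without a filter, 0 with only the groups compared, 2 after the length and GC correction, 0 at an adjusted p under 0.01, 3 at 0.1 and 2 with cardiomyocyte marker scaling; leaving out 1 mouse gave 0 to 2. That scaling turned the members' median to 0.029 in males, 0.03 in females and in the mean effect, and -0.065 between the sexes in cKO, where the medians of all genes were 0.135, 0.080, 0.110 and -0.097, which leaves the members at -0.11, -0.05, -0.08 and 0.03 relative to all genes. Replicate numbers are not stated to pair the samples. Over 6 pairs each, same-numbered Ctrl and cKO samples had a mean correlation of deviations of -0.03 in males, with 0 of 6 over 0.1. In females the mean was 0.12, with 3 of 6 over 0.1 and the highest at 0.404, beside -0.02 for pairs with unlike numbers. Whether same-numbered females share a source was not tested. With the replicate block 2 members were called in the mean effect, and with the block and the length and GC correction together 2 in the mean effect and 0 between the sexes in cKO. Over these settings the number of all genes called ranged from 4 to 875 in males (68 in the design reported), 1 to 9 in females (5), 23 to 1321 for the mean effect (205), 35 to 253 between the sexes in Ctrl (98) and 69 to 1107 in cKO (414). The exact permutation test with a prior count of 0.5 was not run, since no member was called for genotype. The members' summed level per transcript length moved by less than its SD over mice (1704 with the longest transcript, SD 102; 1744 with the mean transcript length; 1706 over genes tested only). Low counts limit Tomm20l, Tomm6os, Timm8a2 and Tomm6 most. For Tomm6, the part of shared sequence in its low counts was not tested.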
